A study of Mus musculus with 9 samples.

Results

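Liver of mice kept on a methionine-choline-deficient (MCD) diet and treated with sarsasapogenin (SAR) was set beside liver of normal mice, to give the transcripts that still differed from normal under treatment. Total liver RNA of C57BL/6 mice was sequenced in 9 samples, and the 6 samples of these 2 groups enter every test below. The normal group (n = 3) received saline, and its diet is not stated in the labels. The SAR group (n = 3) had fatty liver disease induced by the MCD diet and received SAR at what the labels call a high dose, with no amount. The MCD model group (n = 3) had the diet alone and is shown only as values beside the others. SAR and normal samples thus differ in diet and in treatment at once, and what belongs to either cannot be told apart. Age and sex are not given. Nothing in the labels ties each sample to a mouse of its own, and p-values therefore measure only how these samples vary, a spread that can be technical. Of 16147 genes in both deposited tables, 11988 had a mean of the normal and SAR group means of at least 10. Values per library were available for 11843 of them.

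The MCD diet withholds methionine and choline, from which hepatocytes make phosphatidylcholine for very low density lipoprotein. Fat is retained, and the liver becomes inflamed and scarred. Sarsasapogenin is a plant steroid, the sugar-free core of saponins from Anemarrhena asphodeloides. In such livers, monocyte-derived macrophages that express Trem2 and Gpnmb gather around fat-laden hepatocytes, while resident Kupffer cells that express Clec4f and Timd4 can be lost. Sterol synthesis is governed by the transcription factor SREBP2, which works with the CCAAT-binding factor NF-Y and is held in check by the INSIG proteins.

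Values are normalised reads: whole reads per library, recovered from the deposited group means, divided by the authors' size factor and brought to 1 scale. Recovered reads per library came to between 6367012 and 7353418 in the normal group and between 6309138 and 6828182 in the SAR group. Genes solved in this way carried 45.6% of all normalised reads in normal and 53% in SAR, because very abundant transcripts were not divided per library. The letters a, b and c order a group's libraries by size factor and are not the replicate numbers of the labels, and values are always listed in the order a, b, c. Normal library c stood apart from the other normal libraries. Across genes, which are not independent replicates, the correlation of log2 values was 0.926 between c and a, 0.917 between c and b and 0.978 between a and b. Among the SAR libraries it was 0.961 to 0.969. In normal library c, neutrophil markers lay a median of 5.13 above the mean of the other two normal libraries on the log2 scale (15 genes) and acute phase genes 3.14 (10 genes). Male-biased liver genes differed there by a median of -4.81 (13 genes) and matrix genes by -2.24 (31 genes). The counts of called genes below are therefore given with and without this library. The tissue label was checked by hepatocyte genes: Alb, the serum albumin gene, had group means of 842230.0 in normal and 1320290.0 in SAR.

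In the SAR group 213 genes were higher than in the normal group, 1.8% of the 11843 tested, and 194 were lower, 1.64%, together 3.44% (limma, two-sided, Benjamini-Hochberg adjusted p under 0.05). At an unadjusted p under 0.05, 1598 genes were higher and 1482 lower. The median log2 difference over all tested genes was 0.02. In all 407 called genes the 3 SAR libraries lay on 1 side of the 3 normal libraries, which held for 3876 tested genes, 32.7%. Without normal library c, 576 genes were higher (4.87%) and 506 lower (4.28%), together 9.15% of 11829, and 404 of the 407 were among them. The shares of 4.87% and 4.28% apply to every list count given below without normal library c. Leaving out any other library left far fewer calls with 5 libraries in the test. Of the 407, 29 were called without normal library a, 10 without normal library b, 6 without SAR library a, 16 without SAR library b and 39 without SAR library c. Mmp12, Gpnmb and Mgst3 were the 3 genes called in every one of these 6 leave-outs. The other 404 called genes each lost the call in at least 1 leave-out. For many of those described below, the highest adjusted p over the 6 leave-outs is given with the library left out.

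**Figure D1:**
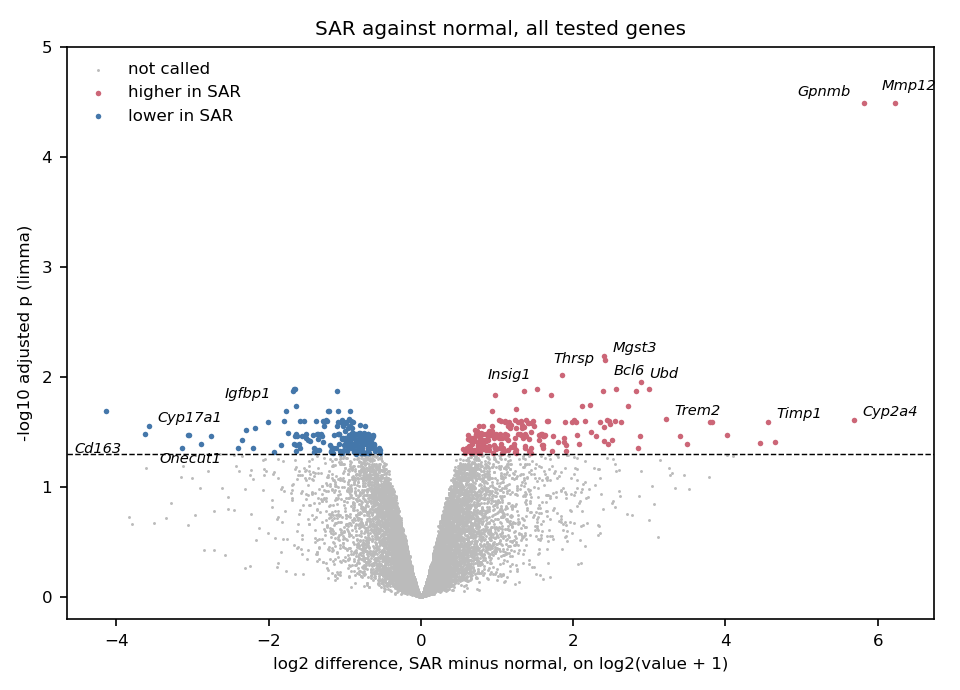
Log2 difference of SAR minus normal on the log2(value + 1) scale (x axis) against -log10 of the limma adjusted p (y axis) for the 11843 tested genes. Red points are the 213 genes called higher, blue points the 194 called lower, grey points those not called, and the dashed line is the threshold of 0.05. Mmp12 and Gpnmb lie far above all other genes at an adjusted p of 3.21e-05.

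Mgst3 (ENSMUSG00000026688), which encodes a microsomal glutathione transferase, stood at 78.1, 91.0 and 73.4 normalised reads in the normal libraries and 557, 375 and 383 in the SAR libraries. Its SAR values lay far above its normal ones, with no overlap (log2 difference 2.41, SE 0.20, limma adjusted p = 0.0064). Its model values, 509, 613 and 636, overlapped those of SAR. Bcl6 (ENSMUSG00000022508), a transcriptional repressor that competes with STAT5 in male liver, stood at 108, 164 and 95.5 normalised reads in the normal libraries and 576, 688 and 663 in the SAR libraries. All 3 SAR libraries exceeded every normal and every model library, the latter at 164, 153 and 199.5 (log2 difference 2.42, SE 0.21, limma adjusted p = 0.00705). Across the leave-outs its adjusted p rose to at most 0.0593 without SAR library a. Thrsp (ENSMUSG00000035686), which encodes a lipogenic nuclear protein, stood at 175, 145 and 182 normalised reads in the normal libraries and 599, 721 and 507 in the SAR libraries, again without overlap (log2 difference 1.85, SE 0.17, limma adjusted p = 0.00959). Thrsp in the model group was low in libraries a and b and high in library c, at 38.3, 16.1 and 574. In the leave-outs the adjusted p of Thrsp reached 0.0593 without SAR library a.

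**Figure D2:**
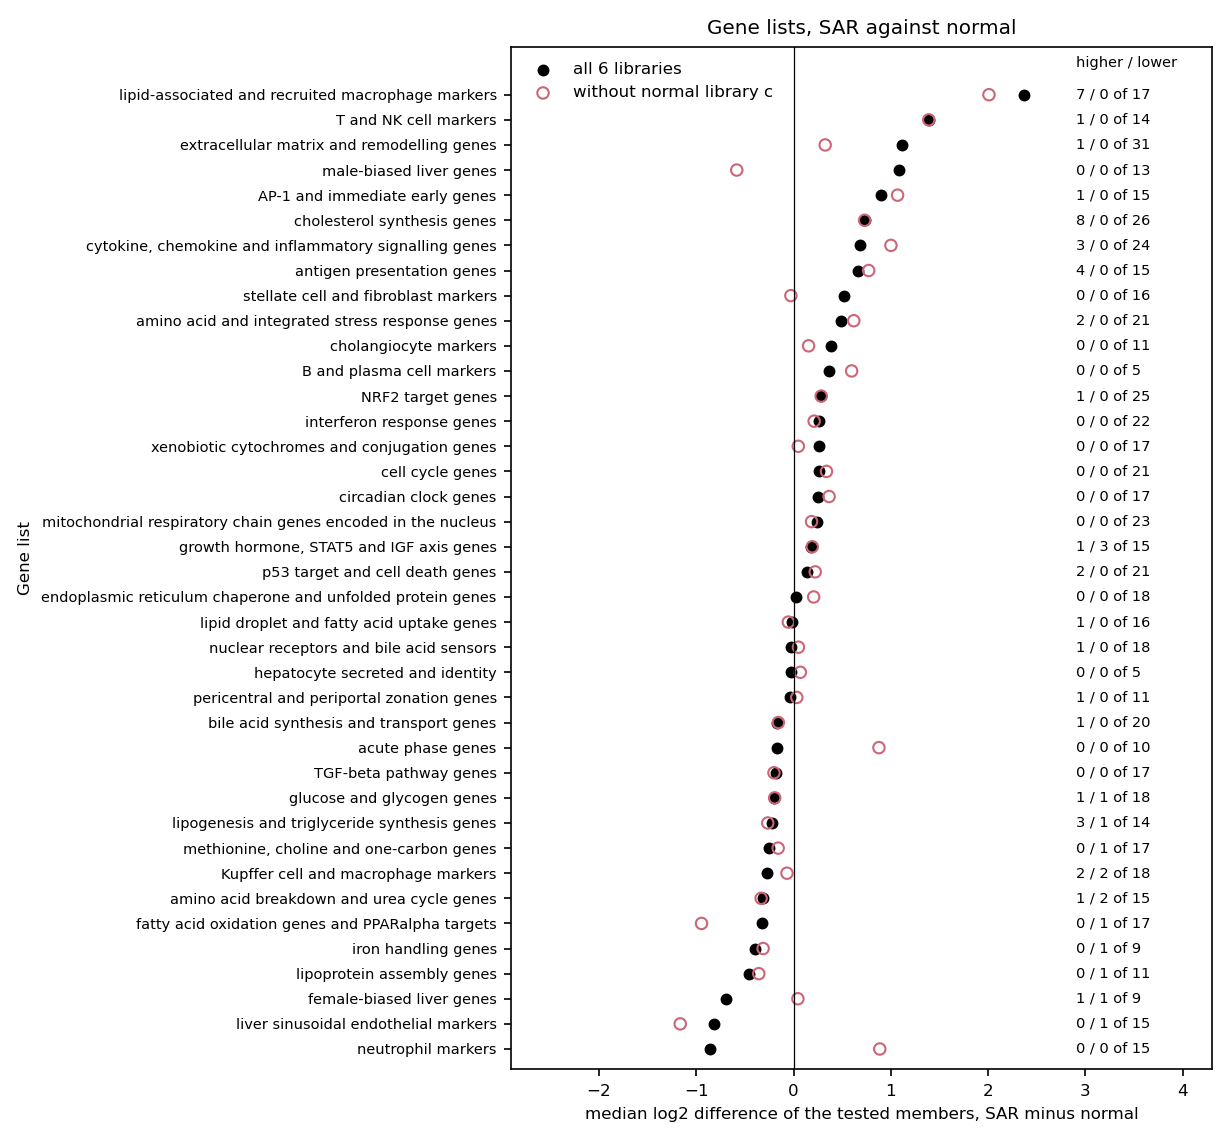
Median log2 difference of SAR minus normal (x axis) over the tested members of 39 gene lists (y axis), with all 6 libraries (filled) and without normal library c (open), and the number of members called higher and lower at the right. The recruited macrophage list has the highest median at 2.36, and the male-biased, acute phase, neutrophil, stellate and female-biased lists are among those that change sign without normal library c.

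Recruited and lipid-associated macrophage markers gave calls in 1 direction, for fewer than 1 in 2 of those tested. Of 19 markers 17 were tested, and 7 were called higher and 0 lower, beside 1.8% and 1.64% of all genes. Their median log2 difference was 2.36, against 0.02 over all tested genes. Mmp12 (ENSMUSG00000049723), the macrophage elastase, stood at 11.8, 7.18 and 7.34 normalised reads in the normal libraries and 727, 607 and 813 in the SAR libraries. The SAR libraries lay far above the normal ones (log2 difference 6.22, SE 0.26, limma adjusted p = 3.21e-05), and the model libraries held still more, at 2846, 2674 and 3284. Gpnmb (ENSMUSG00000029816), a transmembrane glycoprotein of lipid-laden macrophages, stood at 11.8, 15.6 and 13.5 normalised reads in the normal libraries and 885, 654 and 958 in the SAR libraries. The separation was as wide (log2 difference 5.82, SE 0.22, limma adjusted p = 3.21e-05), with 3177, 2405 and 3682 in the model libraries. Itgax (ENSMUSG00000030789), the integrin CD11c, stood at 12.8, 19.1 and 20.8 normalised reads in the normal libraries and 174, 104 and 166 in the SAR libraries (log2 difference 2.99, SE 0.32, limma adjusted p = 0.0129). Trem2 (ENSMUSG00000023992), a lipid-sensing receptor of these cells, stood at 8.56, 13.2 and 19.6 normalised reads in the normal libraries and 202, 79.2 and 137 in the SAR libraries, without overlap (log2 difference 3.22, SE 0.44, limma adjusted p = 0.0239). Levels of Itgax and Trem2 in the model libraries were 631, 559 and 517 and 785, 641 and 606. The other called members were Cd63, a tetraspanin of late endosomes (log2 difference 2.57), Lgals3, galectin-3 (2.73), and Lpl, lipoprotein lipase (2.48). Leaving out a library left between 2 (without SAR library a) and 10 (without normal library c) of the 17 called higher. There were 4 without normal library a, 4 without normal library b, 5 without SAR library b and 4 without SAR library c. The 10 stand beside 4.87% of all genes called higher without normal library c. With 9 libraries in one fit 9 were called. The highest adjusted p in the leave-outs was 0.0637 without SAR library a for Itgax and 0.0873 without SAR library a for Trem2.

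Other members of the list were not called. Spp1, osteopontin, stood at 403, 628 and 756 normalised reads in the normal libraries and 1580.3, 857 and 729 in the SAR libraries, so the groups overlapped (log2 difference 0.79, SE 0.32, limma adjusted p = 0.167). Ccr2, the receptor that draws monocytes into tissue, stood at 42.8, 43.1 and 79.6 normalised reads in the normal libraries and 104, 87.4 and 163 in the SAR libraries. Its groups did not overlap, but the difference was not called (log2 difference 1.10, SE 0.34, limma adjusted p = 0.0983). Cx3cr1, the fractalkine receptor, was likewise not called (log2 difference 2.02, SE 0.51, limma adjusted p = 0.0666), with 12.8, 16.8 and 9.79 in the normal and 112, 46.4 and 31.8 in the SAR libraries. Plin2, the fat droplet coat protein on this list, is among the genes with no values per library for the normal group. The authors' deposited means give it 18902 in normal, 13003 in model and 9473 in SAR after rescaling. Spp1, Ccr2 and Cx3cr1 were named after their values were seen.

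Kupffer cell and general macrophage markers were divided. Of 18 tested, 2 were called higher and 2 lower, beside 1.8% and 1.64% of all genes. The median log2 difference was -0.28, and -0.07 without normal library c. Those higher were markers that recruited macrophages also carry. Cd68, a lysosomal glycoprotein, stood at 116, 179.5 and 131 normalised reads in the normal libraries and 449, 332 and 309 in the SAR libraries (log2 difference 1.35, SE 0.22, limma adjusted p = 0.0285), and Lyz2, macrophage lysozyme, at 999, 945 and 924 normalised reads in the normal libraries and 2571, 1999.9 and 2869.8 in the SAR libraries (log2 difference 1.36, SE 0.16, limma adjusted p = 0.0133). Those lower mark the resident cells. Clec4f (ENSMUSG00000014542), a lectin receptor of Kupffer cells, stood at 2048, 1853 and 1999 normalised reads in the normal libraries and 733, 899.6 and 1168 in the SAR libraries. Every SAR value lay below every normal one (log2 difference -1.10, SE 0.18, limma adjusted p = 0.0281), and the model libraries lay in the range of SAR, at 759, 856 and 1125. Vsig4 (ENSMUSG00000044206), a complement receptor of Kupffer cells, stood at 657, 670.2 and 968 normalised reads in the normal libraries and 174, 283 and 377 in the SAR libraries (log2 difference -1.50, SE 0.28, limma adjusted p = 0.0354). Leaving normal library c aside, 3 of the 18 were called higher and 5 lower, beside 4.87% and 4.28% of all genes. Without SAR library c, 1 was called higher and 2 lower, and in the other leave-outs 0 or 1 were higher and 0 lower. With 9 libraries in one fit 2 were higher and 4 lower. Leave-outs brought the adjusted p to 0.094 without normal library a for Cd68, 0.0682 without normal library b for Lyz2 and 0.106 without normal library b for Vsig4. In bulk RNA, fewer cells of a type and less RNA per cell cannot be told apart.

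Further macrophage markers were named after their values were seen, and all those shown here had negative differences. Cd163 and Siglec1 are not on the list of 18. On that list 14 members had negative and 4 positive differences. Summed over the 18, the libraries overlapped, at 10719 to 15237.5 normalised reads in the normal group and 8644 to 12506 in the SAR group. Values of most other listed members are not reported here. Timd4, a phosphatidylserine receptor of Kupffer cells seeded in the embryo, stood at 128, 95.7 and 174 normalised reads in the normal libraries and 6.70, 38.2 and 28.9 in the SAR libraries. It just missed the threshold (log2 difference -2.64, SE 0.58, limma adjusted p = 0.0502) and passed it without normal library c, at 0.0424. Adgre1, which encodes the antigen F4/80, stood at 228, 208 and 264 normalised reads in the normal libraries and 41.5, 66.9 and 139 in the SAR libraries and was not called (log2 difference -1.66, SE 0.39, limma adjusted p = 0.0563). Its model libraries, at 175, 161 and 234, all lay above every SAR library. Cd163 (ENSMUSG00000008845), the scavenger receptor for haptoglobin-bound haemoglobin, stood at 638, 667 and 1174 normalised reads in the normal libraries and 20.1, 149 and 83.8 in the SAR libraries. It was called lower (log2 difference -3.62, SE 0.63, limma adjusted p = 0.0328), with model values of 17.5, 18.6 and 140.1. Siglec1, the sialic acid receptor CD169, stood at 174, 179.5 and 211 normalised reads in the normal libraries and 57.6, 75.1 and 96.8 in the SAR libraries, again lower (log2 difference -1.31, SE 0.23, limma adjusted p = 0.0329), and at 210.5, 141 and 191 in the model libraries. In the leave-outs the adjusted p reached 0.0942 without normal library a for Clec4f, 0.0969 without normal library b for Cd163 and 0.109 without normal library b for Siglec1.

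**Figure D3:**
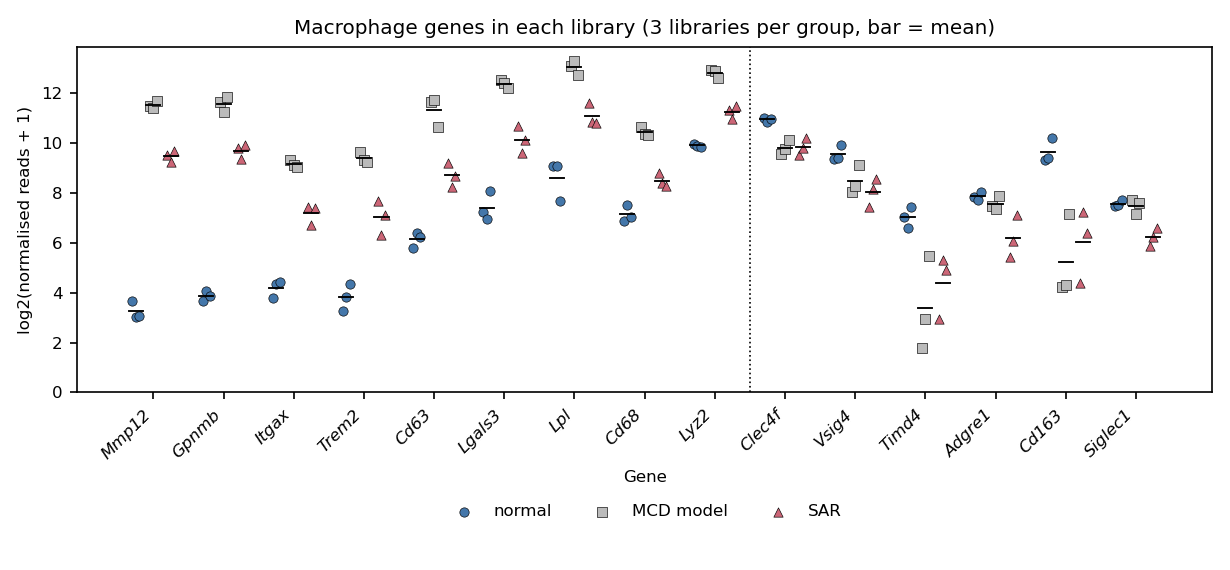
Log2 of normalised reads + 1 (y axis) of 15 macrophage genes (x axis) in each of the 3 normal (circles), 3 MCD model (squares) and 3 SAR (triangles) libraries, with bars at the group means. Left of the dotted line SAR lies above normal and below the model, and right of it SAR lies below normal, in Adgre1 and Siglec1 also below the model.

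Of 15 antigen presentation genes tested, 4 were called higher and 0 lower, beside 1.8% and 1.64% of all genes (median 0.67). The counts were 9 and 0 without normal library c, beside 4.87% and 4.28% of all genes, and 2 and 0 with voom on the recovered reads. H2-Aa (ENSMUSG00000036594), an MHC class II chain, stood at 676, 695 and 492 normalised reads in the normal libraries and 1983, 1203 and 1878 in the SAR libraries (log2 difference 1.42, SE 0.22, limma adjusted p = 0.0262). H2-Eb1 and H2-Ab1, also class II chains, were higher by 1.45 and 1.07 (log2, limma adjusted p = 0.0314 and 0.0494). Some H2 genes are near copies of one another, and whether reads were shared among those named here was not measured. Psmb10, a catalytic subunit of the immunoproteasome, stood at 222, 237 and 386 normalised reads in the normal libraries and 624, 472 and 670.2 in the SAR libraries (log2 difference 1.09, SE 0.23, limma adjusted p = 0.0472). Cd74, the invariant chain, stood at 1061, 959 and 902 normalised reads in the normal libraries and 2512, 1335 and 2349.9 in the SAR libraries and just missed the threshold (log2 difference 1.03, SE 0.23, limma adjusted p = 0.0524). For H2-Aa the adjusted p in the leave-outs reached 0.089 without SAR library a. Without SAR library b 4 of the 15 were called higher, and 0 in each of the other 4 leave-outs. Class II genes are also expressed by macrophages, whose 17 recruited-type markers summed to between 4013 and 5405 normalised reads in the normal libraries and between 9115 and 14951 in SAR. Their part in the result was not tested.

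Of 24 cytokine and chemokine genes tested, 3 were called higher and 0 lower, beside 1.8% and 1.64% of all genes (median 0.69), all of them chemokines. Ccl5 (ENSMUSG00000035042), which draws T cells, stood at 53.5, 15.6 and 37.9 normalised reads in the normal libraries and 245, 109 and 235 in the SAR libraries (log2 difference 2.50, SE 0.48, limma adjusted p = 0.0375). Cxcl9, a chemokine induced by interferon-gamma, stood at 155, 117 and 62.4 normalised reads in the normal libraries and 458, 292 and 625 in the SAR libraries (log2 difference 2.06, SE 0.37, limma adjusted p = 0.0337). Cxcl2, which draws neutrophils, counted 3 reads in all normal libraries and 85 in all SAR libraries, a normalised ratio of 33.8 (exact 95% interval 11.2 to 167, counting error only). It was at or near 1 normalised read in each normal library and at 22.8, 23.2 and 73.7 in SAR. Of the 24, 6 were called higher without normal library c, beside 4.87% of all genes, and in the other 5 leave-outs 0 were. With 9 libraries in one fit 6 were higher and 1 lower, and with voom 1 was higher. Il1b, interleukin-1 beta, stood at 78.1, 98.1 and 73.4 normalised reads in the normal libraries and 34.8, 36.9 and 73.7 in the SAR libraries, and the groups overlapped (log2 difference -0.84, SE 0.34, limma adjusted p = 0.162). Ccl2, a monocyte chemokine, stood at 4.28, 0 and 6.12 normalised reads in the normal libraries and 10.7, 27.3 and 20.2 in the SAR libraries and was not called (log2 difference 2.52, SE 0.92, limma adjusted p = 0.134). Tnf, at 2.34 in normal and 17.5 in SAR, was under the minimum mean, and Il6 had 0 reads in normal, 2 in the model and 1 in SAR. Among 14 T and NK cell markers tested, Ccl5 alone was called (median 1.40), beside 3.44% of all genes. Without normal library c, 4 of 13 tested were called higher, beside 4.87% of all genes. With 9 libraries in one fit 5 of the 14 were called higher, and 0 were with voom or in the other 5 leave-outs. The 16 markers summed to between 181 and 255 normalised reads in normal and between 384 and 762 in SAR. Cd8a, named after its values were seen, stood at 9.63, 3.59 and 11.02 normalised reads in the normal libraries and 62.9, 24.6 and 66.4 in the SAR libraries and was not called (log2 difference 2.52, SE 0.58, limma adjusted p = 0.0554). Of 22 interferon response genes 0 were called (median 0.26).

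In the matrix and its cells, Timp1 was the single call among 31 matrix and remodelling genes tested, a share near the 3.44% of all genes. Their median was 1.11 with all libraries and 0.32 without normal library c, where 3 were called higher and 1 lower. In the other 5 leave-outs, and with a minimum mean of 50, 0 were called, and 2 were higher with 9 libraries in one fit. Timp1 (ENSMUSG00000001131), which inhibits metalloproteinases, counted 2 reads in the normal libraries together and 83 in the SAR libraries, a normalised ratio of 49.5 (exact 95% interval 13.3 to 415, counting error only). Its SAR libraries lay close together at 37.5, 39.6 and 37.6 normalised reads, and the model libraries at 407, 261 and 77.2. Col1a1, the fibrillar collagen chain, stood at 96.3, 215 and 2.45 normalised reads in the normal libraries and 688, 248 and 214 in the SAR libraries. Normal library c was nearly devoid of it and normal library b overlapped with SAR, so the difference was not called (log2 difference 2.997, SE 1.33, limma adjusted p = 0.198). The difference was 1.20 without normal library c. Acta2, smooth muscle actin of activated stellate cells, stood at 101, 266 and 25.7 normalised reads in the normal libraries and 89.7, 56.0 and 43.3 in the SAR libraries (log2 difference -0.55, SE 0.73, limma adjusted p = 0.664), and its difference was positive in some leave-outs. Tgfb1, the ligand that drives scarring, stood at 142, 184 and 155 normalised reads in the normal libraries and 139, 106 and 188 in the SAR libraries (log2 difference -0.18, SE 0.24, limma adjusted p = 0.66), also with a positive value in a leave-out. Of 16 stellate cell and fibroblast markers 0 were called, and their median went from 0.52 to -0.03 without normal library c.

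Markers of liver sinusoidal endothelium, the fenestrated lining of the liver's capillaries, all had negative differences in the 15 tested, with a median of -0.82. Of them 1 was called lower and 0 higher, beside 1.64% and 1.8% of all genes. Of the 15, 6 were called lower without normal library c, beside 4.28% of all genes, and in the other 5 leave-outs 0 were. Stab2 (ENSMUSG00000035459), the hyaluronan scavenger receptor, stood at 574, 707 and 525 normalised reads in the normal libraries and 320.1, 351 and 410.2 in the SAR libraries (log2 difference -0.74, SE 0.16, limma adjusted p = 0.0494). The groups did not overlap, and model libraries stood at 298, 242 and 379.6. Its adjusted p in the leave-outs reached 0.151 without normal library b, and it was also not called with voom or with 9 libraries in one fit. Lyve1, another hyaluronan receptor, was named after its values were seen. It stood at 289.8, 353 and 184 normalised reads in the normal libraries and 125, 94.2 and 152 in the SAR libraries and was not called (log2 difference -1.13, SE 0.28, limma adjusted p = 0.0633), while its model libraries, at 264, 345 and 176, all lay above every SAR library. Summed over the 15 markers, the libraries spanned 3830 to 8359 normalised reads in the normal group and 2136 to 4576 in the SAR group.

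Among genes of cholesterol synthesis and uptake, all calls were higher in the SAR group. The promoters of 3 called genes are shown because each holds several copies of CCAAT, the letters NF-Y is known to bind, and 1 of them holds a match to a form of the sterol response element. They are printed from RefSeq (GRCm38.p6), 5′ to 3′ on the gene's strand, with CCAAT on either strand (ATTGG when on the other strand) and TCACNCCAC in capitals. Hmgcs1 lies on the plus strand at chr13:119690101-119690330, Nsdhl on the plus strand at chrX:72918391-72918520 and Msmo1 on the minus strand at chr8:64733599-64733758, each window upstream of the transcription start.
Hmgcs1: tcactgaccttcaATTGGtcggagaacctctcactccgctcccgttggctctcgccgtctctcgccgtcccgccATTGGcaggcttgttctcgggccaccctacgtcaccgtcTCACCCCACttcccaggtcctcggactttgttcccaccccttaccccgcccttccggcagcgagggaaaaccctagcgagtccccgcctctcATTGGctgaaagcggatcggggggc
Nsdhl: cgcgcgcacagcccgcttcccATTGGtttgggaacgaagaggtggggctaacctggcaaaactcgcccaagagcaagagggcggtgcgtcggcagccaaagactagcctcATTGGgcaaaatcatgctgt
Msmo1: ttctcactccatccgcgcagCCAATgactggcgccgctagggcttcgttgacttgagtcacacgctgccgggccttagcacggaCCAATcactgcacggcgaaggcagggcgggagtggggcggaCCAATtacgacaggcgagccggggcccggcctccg
Hmgcs1 encodes the cytosolic synthase that makes HMG-CoA, Nsdhl a C4 decarboxylase of sterol intermediates and Msmo1 the C4 methyl oxidase before it. RefSeq promoters matched 18 of the 26 genes on the list. Within 250 bases before the start, searched on both strands, CCAAT occurred in 17 of the 18, against 37.5% of 27025 genes with a promoter, and in 5 of the 6 called genes matched. The only matched gene without it was a called one, so CCAAT did not set called genes apart from uncalled ones. Mvk, Ggps1 and Hsd17b7, which were not called, also hold several copies. TCACNCCAC occurred in Hmgcs1 alone of the 18, against 1.22% of genes, and it does not overlap the CCAAT matches there. A match is a run of letters and not evidence of binding.

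All 26 cholesterol genes were tested, and 8 were called higher and 0 lower, beside 1.8% and 1.64% of all genes. The median log2 difference was 0.73 and stayed at 0.73 without normal library c, where 14 were called higher and 1 lower. With 9 libraries in one fit, which adds the model group's spread, 4 were called higher and 0 lower, while calls over all genes went from 407 to 530. In 19 of the 26 every SAR library lay above every normal one, which held for 16.7% of all tested genes. Insig1 (ENSMUSG00000045294), which retains the SREBP precursor in the endoplasmic reticulum, stood at 1056, 758 and 886 normalised reads in the normal libraries and 2673, 2273 and 2813 in the SAR libraries (log2 difference 1.53, SE 0.16, limma adjusted p = 0.0129). All SAR values exceeded all normal ones, and model values were 869.9, 1003 and 2606, highest in library c. Nsdhl (ENSMUSG00000031349) stood at 181, 177 and 109 normalised reads in the normal libraries and 1019, 601 and 592 in the SAR libraries (log2 difference 2.23, SE 0.27, limma adjusted p = 0.0179), with 246, 358 and 645 in the model. Hmgcs1 (ENSMUSG00000093930) stood at 963, 1168 and 556 normalised reads in the normal libraries and 5141, 2217 and 2766 in the SAR libraries (log2 difference 1.88, SE 0.35, limma adjusted p = 0.0354), highest in SAR library a and lowest in normal library c. Msmo1 (ENSMUSG00000031604) stood at 481, 406 and 387 normalised reads in the normal libraries and 1041, 749 and 1289.8 in the SAR libraries (log2 difference 1.24, SE 0.20, limma adjusted p = 0.0292), and again model library c, at the end of 325, 350.4 and 1655, was far above the other two model libraries. The highest adjusted p in the leave-outs was 0.0593 without SAR library a for Insig1, 0.0625 without SAR library a for Nsdhl, 0.101 without normal library a for Hmgcs1 and 0.104 without normal library b for Msmo1. Over the list, the leave-outs other than that of normal library c left 0 to 3 called higher: 2 without normal library a, 0 without normal library b, 0 without SAR library a, 3 without SAR library b and 2 without SAR library c.

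The remaining called members were Sqle, squalene epoxidase (log2 difference 1.37), Fdft1, squalene synthase (1.15), Sc5d, lathosterol oxidase (0.86), and Acat2, a cytosolic thiolase (0.77). Hsd17b7, a ketosteroid reductase late in the pathway, pointed the other way and was named after its values were seen. It stood at 1021, 1170.5 and 881 normalised reads in the normal libraries and 461, 535 and 869 in the SAR libraries, below normal in every SAR library without being called (log2 difference -0.76, SE 0.23, limma adjusted p = 0.0971).

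**Figure D4:**
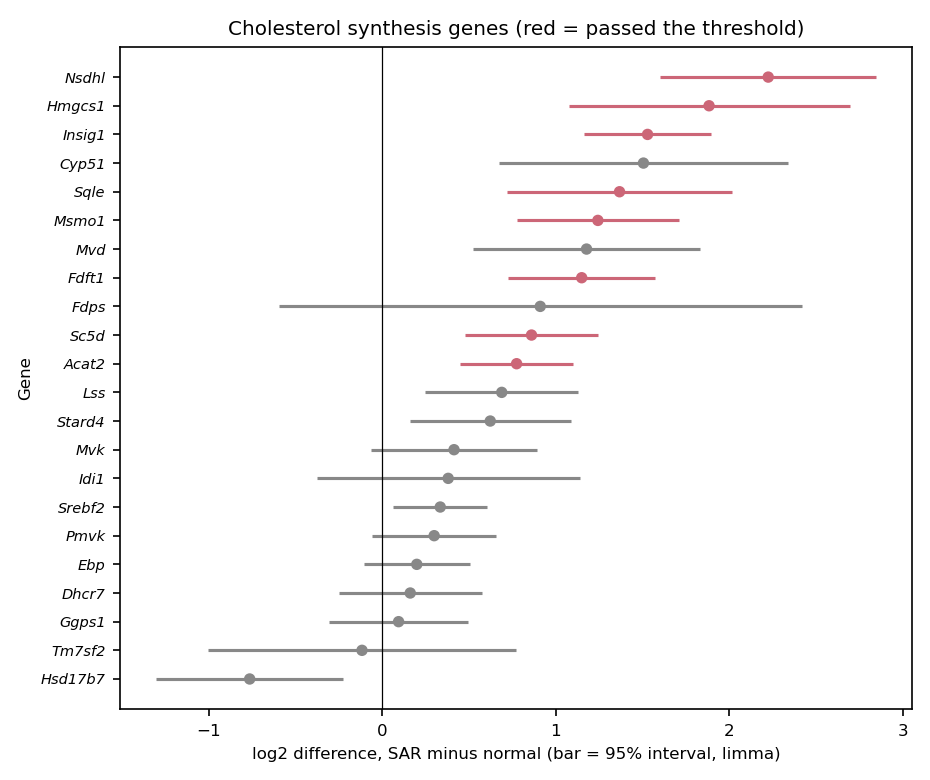
Log2 difference of SAR minus normal (x axis) with its 95% interval from limma, for 22 of the genes of cholesterol synthesis and uptake (y axis), in red where called. Nsdhl lies highest at 2.23, and Hsd17b7 lies below 0 with an interval that leaves out 0.

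Among the few lipogenic genes called, those higher were regulators and the 1 lower was an enzyme. Of 14 tested, 3 were called higher and 1 lower (median -0.22), beside 1.8% and 1.64% of all genes. Beside Thrsp, Srebf1 (ENSMUSG00000020538), which encodes the lipogenic factor SREBP1, stood at 330.5, 227 and 293 normalised reads in the normal libraries and 949, 589.7 and 588 in the SAR libraries (log2 difference 1.30, SE 0.22, limma adjusted p = 0.0327). Mlxipl (ENSMUSG00000005373), which encodes the glucose-sensing factor ChREBP, stood at 1744, 1577 and 1147 normalised reads in the normal libraries and 5102, 3765 and 2682 in the SAR libraries (log2 difference 1.34, SE 0.25, limma adjusted p = 0.0354). Its model values, 1585, 1397 and 1429, lay in the range of normal. Acacb (ENSMUSG00000042010), the acetyl-CoA carboxylase of the mitochondrial surface that restrains fatty acid entry, stood at 851, 1176 and 583 normalised reads in the normal libraries and 257, 292 and 280.2 in the SAR libraries. It was called lower (log2 difference -1.59, SE 0.24, limma adjusted p = 0.0252), and it was low in model libraries a and b but not c, at 158, 123 and 871. Fasn, fatty acid synthase, stood at 988, 1029 and 873 normalised reads in the normal libraries and 1766, 1286 and 1359 in the SAR libraries and was not called (log2 difference 0.60, SE 0.15, limma adjusted p = 0.0683). Every SAR library of this enzyme lay above every normal one. Scd1, the stearoyl-CoA desaturase, had authors' deposited means of 23038 in normal, 5605 in model and 5342 in SAR after rescaling, a log2 difference of -2.11 of SAR against normal with no test. In the leave-outs 1 was called higher without normal library a, without normal library b, without SAR library b and without SAR library c, and 0 without SAR library a. Without normal library c 3 were higher and 2 lower, and with 9 libraries in one fit 2 and 0. Leave-outs took the adjusted p to 0.106 without normal library b for Srebf1, 0.109 without normal library b for Mlxipl and 0.089 without SAR library a for Acacb.

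Among 18 glucose and glycogen genes, 1 was called higher and 1, Igfbp1, lower (median -0.20), beside 1.8% and 1.64% of all genes. The counts were 2 and 2 without normal library c. The other leave-outs called at most 1 of the 18. Igfbp1 (ENSMUSG00000020429), a secreted binding protein of insulin-like growth factors that insulin represses, stood at 8993, 10817 and 13486 normalised reads in the normal libraries and 2919, 3765 and 3887 in the SAR libraries (log2 difference -1.65, SE 0.21, limma adjusted p = 0.0183). All SAR libraries lay below every normal and every model library, the latter at 5741, 7706 and 10069.7. Its adjusted p in the leave-outs reached 0.0712 without normal library b. Pck1, the gluconeogenic carboxykinase, had authors' deposited means of 57748 in normal and 74514 in SAR after rescaling.

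Of 15 genes of the growth hormone, STAT5 and IGF axis, 1 was called higher and 3 lower (median 0.18). Over all genes 1.8% were higher and 1.64% lower. The same counts were found for the list without normal library c. In the other leave-outs 0 or 1 were higher and 0 or 1 lower. Growth hormone acts on liver through its receptor and STAT5, which induces feedback inhibitors such as Cish and Socs2. Ghr, the receptor, stood at 6307, 5517 and 3695 normalised reads in the normal libraries and 7108, 7979 and 6538 in the SAR libraries, and Igf1, the secreted growth factor, at 9432, 9496 and 10294 normalised reads in the normal libraries and 11908, 10251 and 10936 in the SAR libraries. Neither was called (log2 difference 0.51, SE 0.22, limma adjusted p = 0.191 and log2 difference 0.18, SE 0.17, limma adjusted p = 0.543). Their model values were 1362, 1512 and 2539 and 5119, 5515 and 7826, below the SAR values in every library. Cish (ENSMUSG00000032578) stood at 119, 82.6 and 88.1 normalised reads in the normal libraries and 16.1, 8.19 and 37.6 in the SAR libraries. Its SAR libraries lay below every normal library (log2 difference -2.40, SE 0.51, limma adjusted p = 0.0443) and below the model libraries, at 140.3, 105 and 131. Socs2 stood at 273, 382 and 274 normalised reads in the normal libraries and 177, 104 and 215 in the SAR libraries, lower without overlap but not called (log2 difference -0.95, SE 0.28, limma adjusted p = 0.0871), with 343, 428 and 476 in the model. Onecut1 (ENSMUSG00000043013), the hepatocyte factor HNF6, stood at 87.7, 51.5 and 62.4 normalised reads in the normal libraries and 20.1, 4.10 and 5.78 in the SAR libraries (log2 difference -2.89, SE 0.58, limma adjusted p = 0.0405). The called gene in the other direction was Bcl6, and the third lower gene was Igfbp1. The highest adjusted p in the leave-outs was 0.141 without normal library a for Cish and 0.138 without normal library a for Onecut1.

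**Figure D5:**
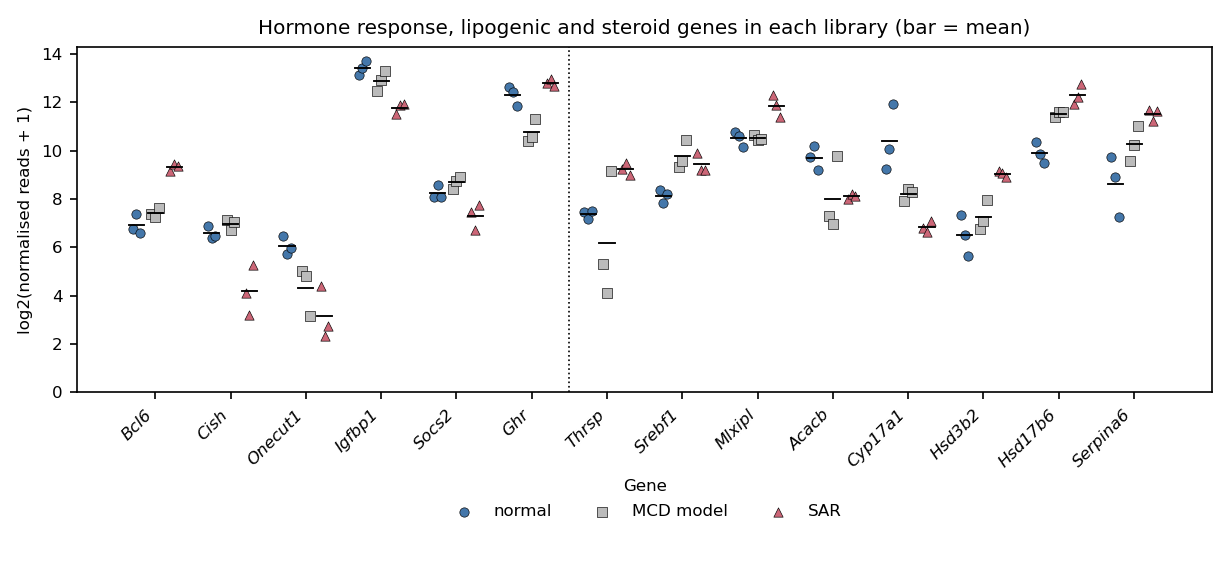
Log2 of normalised reads + 1 (y axis) of 14 genes of hormone response, lipogenesis and steroid metabolism (x axis) in each normal (circles), MCD model (squares) and SAR (triangles) library, with bars at the group means. Bcl6 in SAR lies above both other groups, and Cish, Igfbp1 and Socs2 lie below both.

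Fatty acid oxidation genes and targets of PPARalpha had 0 called higher and 1 lower of 17 tested, with a median of -0.33. Over all genes the shares were 1.8% and 1.64%. Without normal library c 7 were lower, beside 4.28% of all genes, and the median was -0.95. In the other 5 leave-outs 0 were called. Cyp4a32, a fatty acid omega-hydroxylase, stood at 1718, 1878 and 1388 normalised reads in the normal libraries and 532, 778 and 749.6 in the SAR libraries (log2 difference -1.28, SE 0.19, limma adjusted p = 0.0249). It has near-identical Cyp4a copies, so its reads are uncertain. Hadha, a subunit of the mitochondrial trifunctional protein named after its values were seen, stood at 8461, 7899 and 5444 normalised reads in the normal libraries and 2889, 4172 and 5394 in the SAR libraries and was not called (log2 difference -0.83, SE 0.27, limma adjusted p = 0.106). Pdk4, a kinase that shuts off glucose oxidation, overlapped between groups at 381, 785 and 264 normalised reads in the normal libraries and 265, 138 and 217 in the SAR libraries (log2 difference -1.10, SE 0.39, limma adjusted p = 0.129). Cpt1a, which admits fatty acids to mitochondria, had authors' deposited means of 14615 in normal and 7191 in SAR after rescaling.

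Lipoprotein and lipid droplet genes gave 1 call each, of 11 and 16, beside 3.44% of all genes. Each list had more calls without normal library c, where calls over all genes also rose, to 9.15%. Abca1 (ENSMUSG00000015243), which loads cholesterol onto high density lipoprotein, was the 1 gene called of 11 lipoprotein assembly genes. It stood at 2556, 3033 and 3968 normalised reads in the normal libraries and 1323, 1798 and 1716 in the SAR libraries, lower in every SAR library (log2 difference -0.97, SE 0.20, limma adjusted p = 0.0414). Of the 11, 1 was higher and 4 lower without normal library c, 0 were called in the other 5 leave-outs, where the adjusted p of Abca1 reached 0.125 without SAR library a, and 2 were lower with 9 libraries in one fit. Mttp, which lipidates apolipoprotein B, stood at 6568, 7571 and 4462 normalised reads in the normal libraries and 3084, 3597 and 4161 in the SAR libraries and was not called (log2 difference -0.75, SE 0.22, limma adjusted p = 0.0889). Lpl was the 1 called of 16 lipid droplet and uptake genes (0 lower), against 3 higher and 4 lower without normal library c and 0 in the other 5 leave-outs. Cidec and Apoa4, a droplet protein and an apolipoprotein that rise with hepatic fat, had SAR values below all normal ones and were not called. Cidec stood at 1249, 2929.8 and 445 normalised reads in the normal libraries and 335, 218 and 308 in the SAR libraries (log2 difference -2.06, SE 0.57, limma adjusted p = 0.0782), and Apoa4 at 2452, 4920.2 and 941 normalised reads in the normal libraries and 755, 430.0 and 627 in the SAR libraries (log2 difference -1.93, SE 0.52, limma adjusted p = 0.0734). Normal library c held the least of both, and without it their adjusted p was 0.0024 and 0.00251. Cd36, a fatty acid transporter, stood at 664, 1182 and 1453 normalised reads in the normal libraries and 1786, 2210.2 and 2035 in the SAR libraries (log2 difference 0.94, SE 0.27, limma adjusted p = 0.0822), and without normal library c its adjusted p was 0.0171.

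Methionine and one-carbon genes, whose substrates the diet withholds, had 0 higher and 1 lower of 17 tested (median -0.25). Over all genes the shares were 1.8% and 1.64%. Bhmt2 (ENSMUSG00000042118), which methylates homocysteine, stood at 5169, 4975 and 4730.4 normalised reads in the normal libraries and 2421, 3189 and 2445 in the SAR libraries (log2 difference -0.90, SE 0.16, limma adjusted p = 0.0329). Without normal library c 1 was likewise lower, and 0 were called in the other 5 leave-outs or with 9 libraries in one fit. In the leave-outs the adjusted p of Bhmt2 reached 0.115 without normal library b. Model values were 1300.4, 1554 and 2552. Pemt, which makes phosphatidylcholine by methylation, stood at 3305, 3032 and 4115 normalised reads in the normal libraries and 4139, 4265 and 4025 in the SAR libraries and was not called (log2 difference 0.26, SE 0.16, limma adjusted p = 0.323). The authors' deposited means were 210281 in normal, 32928 in model and 59039 in SAR for Mat1a, the hepatic synthetase of S-adenosylmethionine. For Gnmt, which consumes that donor, they were 26987, 3578 and 12006, and for Bhmt, the betaine-dependent methyltransferase, 125612, 38918 and 58741. The SAR means of these 3 lay between those of the model and of normal, with no test. The SAR libraries of Gnmt spread widely, at 5906, 17751 and 12360.

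Amino acid breakdown and urea cycle genes had 1 higher and 2 lower of 15 tested (median -0.31), beside 1.8% and 1.64% of all genes. They had 2 and 3 without normal library c, 0 in the other 5 leave-outs and 1 and 1 with voom or with robust variance. Otc (ENSMUSG00000031173), the ornithine transcarbamylase of the urea cycle, stood at 4926, 4453 and 4088 normalised reads in the normal libraries and 10119, 10525 and 8361 in the SAR libraries. All SAR libraries lay above every normal and model library, the latter at 3238, 4473 and 3463 (log2 difference 1.10, SE 0.17, limma adjusted p = 0.0258). Aass, the first enzyme of lysine breakdown, stood at 14204, 16355 and 15455 normalised reads in the normal libraries and 4513, 8108 and 6659.6 in the SAR libraries and was lower (log2 difference -1.29, SE 0.24, limma adjusted p = 0.0346). Got1, cytosolic aspartate aminotransferase, stood at 11196, 10047 and 24014 normalised reads in the normal libraries and 2178, 5759.5 and 3884 in the SAR libraries, lower (log2 difference -1.93, SE 0.42, limma adjusted p = 0.0485) with normal library c far above the rest. Cps1, the first enzyme of the urea cycle, had authors' deposited means of 90292 in normal, 13971 in model and 35742 in SAR after rescaling. Hal, Gls2 and Sds, which break down histidine, glutamine and serine, overlapped between groups and were not called (log2 difference -0.73, -0.04 and 0.26), and the difference of Gls2 changed sign in leave-outs. Leave-outs brought the adjusted p to 0.105 without normal library b for Otc, 0.119 without normal library b for Aass and 0.141 without SAR library a for Got1.

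Stress response genes were called higher in a few cases. Of 21 genes that respond to amino acid shortage and integrated stress, 2 were higher and 0 lower (median 0.48), beside 1.8% and 1.64% of all genes. The counts were 3 and 1 without normal library c and 0 in the other 5 leave-outs. Atf3 (ENSMUSG00000026628), a stress-induced transcription factor, stood at 65.2, 57.4 and 72.2 normalised reads in the normal libraries and 186, 162 and 165 in the SAR libraries (log2 difference 1.39, SE 0.19, limma adjusted p = 0.0246), and Ddit3, the factor CHOP, at 61.0, 47.9 and 53.9 normalised reads in the normal libraries and 178, 152 and 124 in the SAR libraries (log2 difference 1.45, SE 0.23, limma adjusted p = 0.0262). Both lay above normal in every SAR library, and model values of Atf3 were 689.7, 979 and 763. Fgf21, a stress-induced hormone of the same list, overlapped between groups at 199, 202 and 72.2 normalised reads in the normal libraries and 335, 98.3 and 137 in the SAR libraries (log2 difference 0.21, SE 0.52, limma adjusted p = 0.828), with a sign that changed in leave-outs. Nupr1, a chromatin protein of stressed cells, stood at 11.8, 18.0 and 11.02 normalised reads in the normal libraries and 133, 32.8 and 28.9 in the SAR libraries and was not called (log2 difference 1.85, SE 0.60, limma adjusted p = 0.108). Of 21 p53 target and cell death genes, 2 were higher and 0 lower, beside the same shares of all genes. The counts were 3 and 0 without normal library c, and 0 were called in the other 5 leave-outs and with voom. Gdf15, a secreted stress hormone, stood at 68.4, 34.7 and 88.1 normalised reads in the normal libraries and 512, 239 and 215 in the SAR libraries (log2 difference 2.30, SE 0.42, limma adjusted p = 0.034), and Bbc3, which encodes the death protein PUMA, at 65.2, 73.0 and 97.9 normalised reads in the normal libraries and 213, 201 and 137 in the SAR libraries (log2 difference 1.21, SE 0.25, limma adjusted p = 0.043). Cdkn1a, the cell cycle inhibitor p21, overlapped between groups (log2 difference -0.88, SE 0.54, limma adjusted p = 0.33). The highest adjusted p in the leave-outs was 0.0873 without SAR library a for Atf3, 0.0928 without normal library b for Ddit3 and 0.0999 without SAR library a for Gdf15.

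Gstm3 was the 1 gene called, higher, of 25 NRF2 targets (median 0.28), a share near the 3.44% of all genes. It encodes a glutathione transferase of a family of near copies, so its reads are uncertain, and it stood at 59.9, 87.4 and 93.0 normalised reads in the normal libraries and 982, 381 and 318 in the SAR libraries (log2 difference 2.63, SE 0.40, limma adjusted p = 0.0258). Nqo1 and Hmox1, standard targets of this antioxidant factor, overlapped between groups (log2 difference 0.24, SE 0.29, limma adjusted p = 0.638 and log2 difference -0.27, SE 0.31, limma adjusted p = 0.607). Leaving normal library c aside, 5 of the 25 were higher and 2 lower, beside 4.87% and 4.28% of all genes, and with 9 libraries in one fit 4 and 1. Without SAR library c 1 was higher. In the leave-outs of normal libraries a and b and SAR libraries a and b 0 were called. Of 15 AP-1 and immediate early genes 1 was called higher and 0 lower (median 0.90), beside 1.8% and 1.64% of all genes. The called gene was Fos (ENSMUSG00000021250), the immediate early partner of AP-1. It stood at 64.2, 32.3 and 63.6 normalised reads in the normal libraries and 222, 150.2 and 152 in the SAR libraries (log2 difference 1.73, SE 0.32, limma adjusted p = 0.0345). Jun and Egr1 were not called (log2 difference 0.66, SE 0.21, limma adjusted p = 0.104 and log2 difference 1.66, SE 0.56, limma adjusted p = 0.118), and normal library a held far more Egr1 than the other two normal libraries, at 2673, 521 and 546. Without normal library c 7 of the 15 were called higher, beside 4.87% of all genes, and with 9 libraries in one fit 2. Without normal library a 1 was called higher, and 0 were called without normal library b or without any SAR library. In the leave-outs the adjusted p of Fos reached 0.114 without SAR library a.

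Bile acid and receptor genes gave 1 call each, of 20 and 18, shares near the 3.44% of all genes. Nr0b2 (ENSMUSG00000037583), the repressor SHP that bile acids induce through FXR, was the 1 called of 18 nuclear receptors and bile acid sensors. It stood at 641, 266 and 460.2 normalised reads in the normal libraries and 1553, 1711 and 1506 in the SAR libraries, higher in every SAR library (log2 difference 1.89, SE 0.28, limma adjusted p = 0.0254), with model values of 419, 725 and 695. Its adjusted p in the leave-outs reached 0.089 without SAR library a. Nr1h4, the bile acid receptor FXR itself, stood at 1591, 1664 and 2198 normalised reads in the normal libraries and 1845, 1989 and 2454 in the SAR libraries (log2 difference 0.21, SE 0.17, limma adjusted p = 0.474), and Pparg at 145, 110.1 and 226 normalised reads in the normal libraries and 181, 127 and 185 in the SAR libraries (log2 difference 0.07, SE 0.28, limma adjusted p = 0.892, with a negative value in some leave-outs). Akr1c6, a ketosteroid reductase, was the 1 called of 20 bile acid genes (0 lower), at 8456, 6556 and 5592 normalised reads in the normal libraries and 14759, 18597 and 17901 in the SAR libraries (log2 difference 1.33, SE 0.22, limma adjusted p = 0.0292). The call was not made with 9 libraries in one fit, and the adjusted p in the leave-outs reached 0.109 without normal library b. Without normal library c 1 bile acid gene was higher and 1 lower, and 1 receptor was higher. Cyp7a1, whose enzyme sets the pace of the classical bile acid pathway, stood at 697, 578 and 525 normalised reads in the normal libraries and 141, 397 and 879.6 in the SAR libraries and overlapped between groups (log2 difference -0.70, SE 0.55, limma adjusted p = 0.447). The SAR libraries spread widely for it. Cyp8b1, which makes cholic acid, stood at 14719, 15590.0 and 4631 normalised reads in the normal libraries and 7092, 7881 and 8909.8 in the SAR libraries (log2 difference -0.36, SE 0.43, limma adjusted p = 0.625), Abcb11, the bile salt export pump, at 3479, 2892 and 1949.7 normalised reads in the normal libraries and 5286, 5395 and 3371 in the SAR libraries (log2 difference 0.76, SE 0.26, limma adjusted p = 0.119), and Slc10a1, the bile acid uptake carrier, at 9539, 8711 and 9692 normalised reads in the normal libraries and 6400.1, 8827 and 10419 in the SAR libraries (log2 difference -0.15, SE 0.21, limma adjusted p = 0.69). The difference of Slc10a1 changed sign in a leave-out. Slc51b had 0 reads in normal, 29 in the model and 0 in SAR, and Gpbar1, a bile acid receptor, 0, 6 and 0.

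Genes that differ between male and female liver depended on normal library c. Of 13 male-biased genes tested 0 were called, beside 3.44% of all genes. Their median went from 1.09 to -0.58 without that library, where 1 was higher and 2 lower, beside 4.87% and 4.28% of all genes. Hsd3b5, a male-specific steroid enzyme with near-identical copies, stood at 111, 82.6 and 2.45 normalised reads in the normal libraries and 226, 390.4 and 208 in the SAR libraries (log2 difference 3.06, SE 1.15, limma adjusted p = 0.143). Its model libraries were at or near 0, at 0, 0 and 0.887. Of 9 female-biased genes 1 was higher and 1 lower, beside 1.8% and 1.64% of all genes. The counts were 2 and 2 of 7 tested without that library, beside 4.87% and 4.28% of all genes, and 0 with voom. Cyp2a4, a testosterone hydroxylase with a near-identical copy, counted 1 read in the normal libraries together and 181 in the SAR libraries. The normalised ratio was 216 (exact 95% interval 38.2 to 8565, counting error only), and SAR library a, at the head of 161, 32.8 and 53.4, held most of it. Cyp17a1 (ENSMUSG00000003555), the steroid hydroxylase and lyase, stood at 602, 1064 and 3931 normalised reads in the normal libraries and 111, 98.3 and 136 in the SAR libraries and was called lower (log2 difference -3.57, SE 0.57, limma adjusted p = 0.0281). Normal library c held most of it, and without that library the difference was -2.80 (adjusted p = 0.00104). Cyp2b9, also female-biased, overlapped between groups (log2 difference 3.11, SE 1.71, limma adjusted p = 0.285), since normal library c, at the end of 7.49, 2.39 and 447, was far above the other two.

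Several lists had 0 called members by limma: neutrophil (15 tested), B and plasma cell (5), cholangiocyte (11), acute phase (10), TGF-beta pathway (17), cell cycle (21), endoplasmic reticulum chaperones (18), nuclear-encoded respiratory chain (23), xenobiotic metabolism (17), circadian clock (17) and the hepatocyte genes that could be divided among libraries (5). Several of these had calls without normal library c, where 4.87% of all genes were higher and 4.28% lower. Xenobiotic metabolism had 3 higher, the clock 3 higher and 1 lower, neutrophil genes 2 higher, TGF-beta genes 2 lower, cholangiocyte genes 1 lower, and B and plasma cell, chaperone and hepatocyte genes 1 higher each. The cell cycle and respiratory chain lists still had 0. Neutrophil and acute phase values depended on that library. Lcn2, a secreted acute phase protein, stood at 101, 291 and 45561 normalised reads in the normal libraries and 1249, 2024 and 1729 in the SAR libraries (log2 difference 0.57, SE 1.89, limma adjusted p = 0.874), and without that library the difference was 3.25 (adjusted p = 0.00239). S100a8 and S100a9, the calprotectin chains of neutrophils, stood at 7.49, 51.5 and 1836 and 42.8, 82.6 and 3887 in the normal libraries and 73.7, 28.7 and 182 and 89.7, 94.2 and 274 in SAR. The 16 neutrophil markers summed to between 607 and 55373 normalised reads in normal and between 2160 and 3010 in SAR, and the difference of both S100 genes changed sign in leave-outs. The median of the acute phase list went from -0.17 to 0.88 without normal library c, where 5 of 10 were called higher, beside 4.87% of all genes. Dbp, a clock-driven factor, varied within groups, at 101, 21.5 and 335 normalised reads in the normal libraries and 134, 206 and 897 in the SAR libraries (log2 difference 1.68, SE 0.98, limma adjusted p = 0.311). Mki67, a proliferation marker, overlapped between groups at 25.7, 46.7 and 169 normalised reads in the normal libraries and 88.4, 24.6 and 60.7 in the SAR libraries (log2 difference -0.21, SE 0.70, limma adjusted p = 0.877), with a sign that changed in leave-outs. Krt19, a bile duct keratin, stood at 11.8, 22.7 and 6.12 normalised reads in the normal libraries and 17.4, 24.6 and 14.4 in the SAR libraries (log2 difference 0.58, SE 0.58, limma adjusted p = 0.553) and at 189.8, 203 and 31.0 in the model libraries. Hfe, the haemochromatosis protein, was the 1 called of 9 iron genes, lower at 948, 1048 and 972 normalised reads in the normal libraries and 672, 669 and 689 in the SAR libraries (log2 difference -0.55, SE 0.11, limma adjusted p = 0.0437), with the same count without normal library c and 0 with voom or with 9 libraries in one fit. Lect2, a hepatokine, was the 1 called of 11 zonation genes, higher at 841, 819.8 and 1046 normalised reads in the normal libraries and 2502, 2044 and 1893 in the SAR libraries (log2 difference 1.25, SE 0.16, limma adjusted p = 0.0197). Zonation genes had 3 higher and 1 lower without normal library c. The 1 call of 9 iron genes and the 1 of 11 zonation genes stand beside 3.44% of all genes, and 9.15% without normal library c.

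By the group means alone, 551 of 11988 genes were at least 2-fold higher in SAR (4.6%) and 476 at least 2-fold lower (3.97%), together 8.57%, with no test. These means cover 145 genes that lacked values per library in the normal group, the SAR group or both, most of them abundant secreted or metabolic transcripts. Among these, named after their values were seen, Saa1 and Saa2, the serum amyloid A genes, had authors' deposited means of 109240.0 and 93285 in normal against 3555 and 2066 in SAR after rescaling. Saa1 and Saa2 are near copies, and how normal library c shares in these means was not measured. Car3, a carbonic anhydrase of hepatocytes, had means of 3210.3 in normal, 8526 in model and 42134 in SAR. Its normal libraries stood at 5226, 4130 and 274, so normal library c lowered the normal mean. Cyp3a11, a drug-metabolising cytochrome, had 43768, 21887 and 165480.0, the highest in SAR. Cyp2e1, the ethanol-inducible cytochrome, had 190336 in normal and 203673 in SAR, and Cyp2d9, a male-biased cytochrome, 26319 and 23946. Glul, glutamine synthetase, had 23364 and 23329, Hspa5, the chaperone BiP, 13832 and 13529, and Hamp, the iron hormone hepcidin, 25718 and 11255. Cyp4a14, a fatty acid hydroxylase with near copies, had 99526 and 46049, and Fgb, a fibrinogen chain, 147080.0 and 74960.1. How normal library c shares in the normal means of Hamp and Fgb was not measured either. In that library tested acute phase genes lay a median of 3.14 above normal libraries a and b on the log2 scale.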

How the data were processed

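Liver RNA of 9 samples was sequenced, and the tests use the 3 normal and 3 SAR samples. RNA was extracted with Trizol and made into libraries with a NEBNext Ultra kit, per the labels' protocols. Reads were placed on mm9, per the submitters' processing notes. Aligner, counter, annotation and strand setting: not given in the sources used here, so antisense and overlapping genes cannot be told apart by reads. Per the file headers, the authors deposited 2 tables of DESeq results, whose signal is the group mean of reads divided by size factors. The deposited fold and p columns were not used. Files hold no values per sample.

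Reads per library were recovered by solving each 15-digit mean for 3 whole read numbers times the libraries' constants, for means below 40000. In normal 16232 of 16374 genes were solved and in SAR 16228 of 16294. All 16194 and 16228 with 1 solution also gave the deposited mean over both groups within rounding. That mean follows from the group means already solved, so this check says little about the split among libraries. The model group has deposited means beside normal and beside SAR. Of 16072 model genes solved from each of these alone, 16072 had identical reads. In normal and in SAR, none of 1000 altered means per group was solved. The SAR values were multiplied by 1.09, the median ratio of model means between tables over 8653 genes. Genes with a mean of at least 10 were tested with limma 3.58.1 (R 4.3.3), trended variance, on log2(value + 1), a scale that understates changes of low genes. The scripts were tested on simulated data. No test over single genes by permutation was run, since 3 against 3 samples give few arrangements. Intervals of read ratios cover counting error only.

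The members, the 39 gene lists (739 symbols, 12 absent from the joined tables) and the rule for named genes were chosen with earlier results of these data known. The rule names genes called in every leave-out, up to 3 called members per list with the smallest adjusted p, and chosen anchors. Further list members and all other named genes were picked after their values were seen. IDs had a symbol in 16117 of 16147 cases, and 30 had none. Promoters came from RefSeq by symbol. Values of some list members are not reported here, although the counts and medians include them.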

Additional observations from a re-analysis of the deposited data

How the results depend on the processing

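The counts of 213 higher and 194 lower genes were 213 and 195 with a pseudocount of 0.5, 232 and 208 with 5, 211 and 197 with a minimum mean of 1, 207 and 213 with 50, and 202 and 186 with no filter. They were 203 and 210 with median-of-ratios size factors, 259 and 240 with robust variance, and 297 and 233 with 9 libraries in one fit, which kept 322 of the 407 genes. With voom on the recovered reads, an alternative added after the data were seen, they were 160 and 134, of which 292 were among the 407. Leaving out 1 library gave 4 to 576 higher and 1 to 506 lower, with the extremes without SAR library a and normal library b at the low end and without normal library c at the high end. These fits have 5 libraries in place of 6.

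Counts by group means, 551 and 476, became 1049 and 854 with a minimum mean of 1, and 261 and 278 with 50. They had no leave-outs, since they rest on means. Genes not called whose difference changed sign in leave-outs ranged from -1.43 to 0.23 for Acta2, -0.30 to 0.58 for Fgf21, -0.28 to 0.13 for Gls2, -1.16 to 3.25 for Lcn2, -0.79 to 0.55 for Mki67, -0.16 to 0.35 for Pparg, -2.07 to 1.81 for S100a8, -2.09 to 1.14 for S100a9, -0.31 to 0.044 for Slc10a1 and -0.39 to 0.018 for Tgfb1. No paired analysis was possible because the columns carry no replicate numbers. With 3 libraries a group, genes of moderate change can remain uncalled, and genes with few reads, such as Timp1 or Cxcl2, have wide intervals.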

Other observations

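All genes in this section were named after their values were seen, from the 407 called, and stand for no list. Several of those called higher act on steroids or retinoids. Hsd17b6 (ENSMUSG00000025396), a hydroxysteroid dehydrogenase, stood at 1311, 928 and 721 normalised reads in the normal libraries and 3923, 4777 and 6865 in the SAR libraries (log2 difference 2.40, SE 0.26, limma adjusted p = 0.0133), with 2663, 3145 and 3110.3 in the model libraries. Serpina6 (ENSMUSG00000060807), which encodes the plasma carrier of corticosteroids, stood at 843, 481 and 151 normalised reads in the normal libraries and 3242, 2396 and 3180.3 in the SAR libraries. Its SAR values all exceeded its normal ones (log2 difference 2.88, SE 0.53, limma adjusted p = 0.0345). Hsd3b2 and Hsd3b3, hydroxysteroid dehydrogenases with near-identical copies, were higher by 2.54 and 2.12 (log2, limma adjusted p = 0.0249 and 0.0183). Fdx1, the electron donor of mitochondrial steroid hydroxylases, stood at 784, 794 and 862 normalised reads in the normal libraries and 1556, 1597 and 1635 in the SAR libraries (log2 difference 0.97, SE 0.11, limma adjusted p = 0.0146). Cyp26a1 (ENSMUSG00000024987), which degrades retinoic acid, stood at 6.42, 4.79 and 26.9 normalised reads in the normal libraries and 127, 198 and 131 in the SAR libraries (log2 difference 3.82, SE 0.58, limma adjusted p = 0.0258). Each of Hsd17b6, Serpina6, Fdx1 and Cyp26a1 was higher in 3 of 3 SAR libraries than in every normal library. The highest adjusted p in the leave-outs was 0.0613 without normal library b for Hsd17b6, 0.123 without SAR library a for Serpina6 and 0.0903 without SAR library b for Cyp26a1.

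The PA28 activator of the proteasome was higher in its alpha and beta subunits. Psme1 stood at 938, 974 and 955 normalised reads in the normal libraries and 1932, 1412 and 1737 in the SAR libraries (log2 difference 0.81, SE 0.14, limma adjusted p = 0.0329) and Psme2 at 609.6, 604 and 756 normalised reads in the normal libraries and 1191, 916 and 1141 in the SAR libraries (log2 difference 0.72, SE 0.15, limma adjusted p = 0.047). Psme2b, a near copy of Psme2, was higher by 0.96 (limma adjusted p = 0.0354), and their reads could be shared. Ubd, which encodes the ubiquitin-like protein FAT10, stood at 14.97, 19.1 and 25.7 normalised reads in the normal libraries and 135, 149 and 170.4 in the SAR libraries (log2 difference 2.89, SE 0.28, limma adjusted p = 0.0112), with 1638, 1301 and 755 in the model libraries. Capg, an actin-capping protein of macrophages, stood at 20.3, 29.9 and 39.2 normalised reads in the normal libraries and 297, 179 and 176 in the SAR libraries (log2 difference 2.83, SE 0.32, limma adjusted p = 0.0133). Leave-outs brought the adjusted p to 0.112 without normal library b for Psme1, 0.0593 without SAR library a for Ubd and 0.0625 without SAR library a for Capg.

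The next 6 genes are a selection from the 194 called lower. Lepr, the leptin receptor, stood at 524, 967 and 2100.2 normalised reads in the normal libraries and 166, 172 and 282 in the SAR libraries (log2 difference -2.34, SE 0.45, limma adjusted p = 0.0373), highest in normal library c. Slc25a25, a mitochondrial carrier of ATP-magnesium and phosphate, stood at 3637, 3401 and 5035 normalised reads in the normal libraries and 1303, 1166 and 1278 in the SAR libraries (log2 difference -1.67, SE 0.17, limma adjusted p = 0.0129). Ldha, lactate dehydrogenase A, stood at 31173, 32273 and 33378 normalised reads in the normal libraries and 10395, 12156 and 15636 in the SAR libraries (log2 difference -1.36, SE 0.23, limma adjusted p = 0.0326), and model values were 9067, 10332 and 18939. Pde4b, a phosphodiesterase that breaks down cyclic AMP, stood at 209.6, 144 and 163 normalised reads in the normal libraries and 44.2, 47.8 and 56.3 in the SAR libraries (log2 difference -1.77, SE 0.23, limma adjusted p = 0.0202), with 131, 124 and 126 in the model libraries. Sik1, a kinase induced by cyclic AMP, stood at 501, 402 and 479.8 normalised reads in the normal libraries and 219.6, 182 and 248 in the SAR libraries (log2 difference -1.09, SE 0.17, limma adjusted p = 0.0258), and the model libraries held 1105, 889.6 and 1012, above both other groups. Sdc1, a heparan sulphate proteoglycan that takes up lipoprotein remnants, stood at 4313, 4744 and 5970.2 normalised reads in the normal libraries and 1768, 2441 and 2155 in the SAR libraries (log2 difference -1.24, SE 0.18, limma adjusted p = 0.0252). The highest adjusted p in the leave-outs was 0.135 without SAR library a for Lepr, 0.0593 without SAR library a for Slc25a25, 0.109 without normal library b for Ldha and 0.0749 without normal library a for Pde4b.

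Some genes in SAR lay outside the range of both other groups. Nox4, a hydrogen peroxide-producing oxidase, stood at 567, 484 and 251 normalised reads in the normal libraries and 1097, 1297 and 1215 in the SAR libraries (log2 difference 1.55, SE 0.28, limma adjusted p = 0.0336), with 249, 244 and 298 in the model libraries. Its adjusted p in the leave-outs reached 0.102 without SAR library b. Mbl2, a mannose-binding lectin of the complement system, stood at 3002, 2933 and 1709.8 normalised reads in the normal libraries and 5472, 5280.4 and 4937 in the SAR libraries (log2 difference 1.08, SE 0.22, limma adjusted p = 0.0437), with 869, 1109.7 and 1295. In both, each SAR library held more than every normal and every model library. Vsig8 counted 0 reads in the normal libraries and 47 in the SAR libraries together, a normalised ratio of 18.7 if the normal group is set at a floor of 3 reads. Its model values are not reported here. The exact 95% lower limit for counting error was 14.6-fold.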
